A study of Rattus norvegicus with 6 samples.

Results

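The genes described here encode the enzymes that build and modify glycans in the lateral ventricular choroid plexus of the rat, namely glycosyltransferases, glycan-trimming mannosidases, enzymes of dolichol and GPI anchor assembly and carbohydrate sulfotransferases. They were taken by the letters of their gene symbols from the table in which the authors had named the genes they called different between embryonic day 15 (E15) and the adult. This gave 107 members of 29479 gene identifiers counted. The table holds 10653 identifiers, of which 10093 have a name, and the present rat RefSeq annotation (GRCr8) holds 188 protein-coding symbols of the same pattern, 85 of which are not the symbol of a member. Because the members were chosen by the contrast of E15 with adult, every difference between the ages given below is a description of genes selected for such a difference, with no test.

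The plexuses came from untreated Sprague-Dawley rats, E15 embryos on one side and non-pregnant 6 week old adults on the other. Each of the 3 libraries per age was made from the pooled plexuses of 10 animals, so the spread between libraries is that between pools and not between animals. The series title names epithelial cells, but the tissue was collected whole and holds stroma, vessels and blood beside the epithelium.

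Glycans are assembled step by step in the endoplasmic reticulum and Golgi apparatus, where each enzyme adds one kind of sugar in one kind of linkage and many steps are shared out between paralogous enzymes. N-glycans are built on a dolichol lipid, transferred to protein and then trimmed and branched, whereas mucin-type O-glycans, glycosaminoglycans and GPI anchors are started by enzymes of their own. Sialic acid, fucose and sulfate are added last and give the chains much of their charge and binding properties. The choroid plexus epithelium secretes large amounts of glycoprotein into the cerebrospinal fluid and lies on a stroma rich in proteoglycans.

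The libraries held 17875089 to 19204440 counts, and members took 0.463 to 0.518% of each. Marker genes of several cell types differed between the ages. Only markers named in the authors' table could be used, so they too were selected on this contrast and their counts by age are descriptions. Named were 8 of 10 listed epithelial, 7 of 9 endothelial, 8 of 8 mesenchymal and 5 of 8 proliferation markers. For erythroid cells, developing neurons, oligodendrocytes and macrophages the numbers were 2 of 5, 10 of 10, 4 of 5 and 2 of 6. All 8 named epithelial markers were higher in the adult (summed normalized counts of 441933 to 545355 at E15 and 4075376 to 5008128 in the adult), whereas 7 of 7 endothelial markers (7618 to 10263 and 753.3 to 1200), 7 of 8 mesenchymal markers (43536 to 57343 and 14722 to 15161), 5 of 5 proliferation markers (8106 to 9653 and 133.1 to 173.1), 2 of 2 erythroid markers (5624 to 7527 and 113.3 to 220.7) and 9 of 10 markers of developing neurons (1742 to 5461 and 145.8 to 731) were higher at E15. Of the neuronal markers, *Nhlh1* and *Neurod6* had no count in any adult pool. *Pdgfra*, the mesenchymal marker higher in the adult, had 10972, 9501 and 10573 normalized counts there and made up most of the adult sum of its list. Of 4 oligodendrocyte markers, 3 were higher in the adult (251.8 to 406 and 800.7 to 5935). The other, *Mog*, was called at E15 (2.20-fold) and, with 323, 190 and 208 normalized counts, made up most of the E15 sum. Of 2 macrophage markers 1 was higher at E15 (998.6 to 1199 and 400.7 to 644). No marker list was at 0 at either age. The part of these marker differences in any value below was not tested, and in whole tissue fewer cells of a type and less RNA per cell cannot be told apart.

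Normalized counts below are counts divided by the effective size of the library (total counts times the TMM factor of edgeR) and brought to a common size of 19265016. The TMM factors were 1.317 to 1.326 at E15 and 0.7351 to 0.7726 in the adult, so this scaling lowers E15 values and raises adult ones relative to total counts. The unit carries no correction for transcript length, and levels are therefore compared between pools for one gene and never between genes.

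Counts were found at both ages for 98 of the 107 members and in all 6 libraries for 83. The 9 members without a count in any adult pool were *St8sia2*, *St8sia6*, *B3gnt5*, *Has2*, *Fut1*, *Ndst3*, *Hs3st2*, *Hs3st3b1* and *Chst13*, and every member had counts at E15. Of the 107 members, 105 had more than 10 counts over the 6 libraries and entered the fit, and 101 of these were called at an adjusted p under 0.05 by the quasi-likelihood test of edgeR with Benjamini-Hochberg adjustment over all genes tested. Of the 101, 55 were higher at E15 against 46 in the adult. Over all 16643 genes tested, 64.0% were called, 34.7% at E15 and 29.3% in the adult. The E15 and adult pools did not overlap in 101 of the 105 members tested, against 70.1% of all genes, and since the members were selected on this contrast nothing is read from either share. The median log2 fold change of E15 over adult was 0.82 over the members tested, 0.14 over all genes tested and 0.73 over all genes the authors named. Called members differed by over 2-fold in 46 cases at E15 and in 30 cases in the adult. The smallest differences among called members were those of *B4galt5* (1.43-fold), *Hs2st1* (1.47-fold) and *Alg3* (1.49-fold), and genes just outside the authors' threshold carry no name and were not analysed here.

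The members fell on different steps of the pathways (see the plot of fold changes by type of enzyme). Over all genes tested, 54.2% of the calls lay at E15. Of the called sulfotransferases 14 lay at E15 and 1 in the adult (93.3% at E15), of the fucosyltransferases 3 and 0, and of the glycosaminoglycan chain enzymes 7 and 3 (70.0%). Nearer to the share of all genes were the chain-extending galactose and hexosamine transferases with 10 and 6 (62.5%), the mucin-type O-glycan enzymes with 8 and 5 (61.5%) and the sialyltransferases with 7 and 5 (58.3%), the last with 6 or 7 at E15 and 5 in the adult when a pool was left out. Those of dolichol-linked assembly (1 at E15, 8 in the adult), GPI anchor assembly (2 and 10) and N-glycan trimming and branching (2 and 6) lay more often in the adult with TMM scaling. With scaling by total counts alone, 81.0% of the calls over all genes lay at E15. The calls of these types were then 1 and 4, 2 and 4, and 2 and 3, and the median of the N-glycan enzymes turned from -0.76 to 0.04. Under that scaling the sulfotransferases had 15 and 0, the fucosyltransferases 4 and 0, and the chain-extending enzymes 13 and 1. The glycosaminoglycan enzymes had 7 and 3, the mucin-type enzymes 8 and 4, and the sialyltransferases 7 and 4. Whether the types of enzyme differ from one another was not tested.

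**Figure D1:**
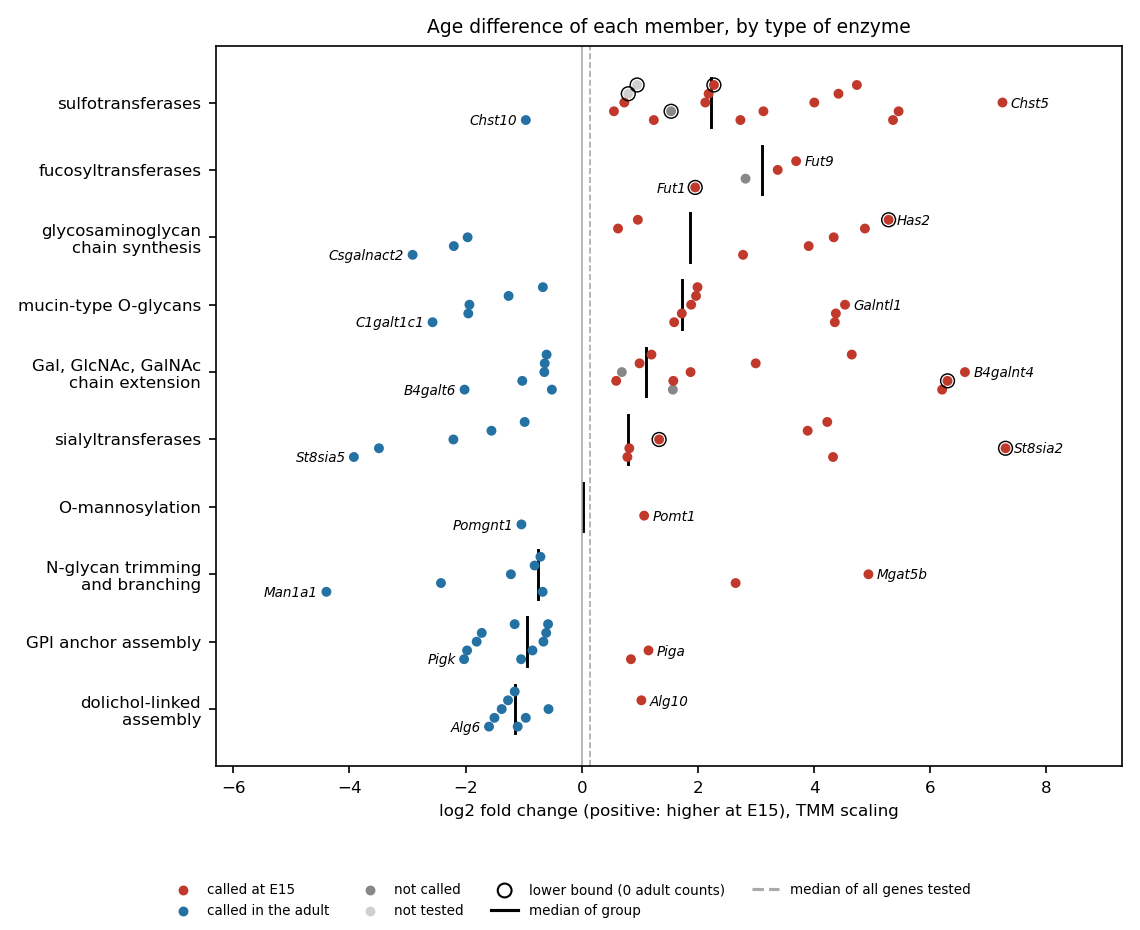
Fold change of each member between E15 and adult (log2, horizontal axis, positive when higher at E15) for 10 types of enzyme (rows), with dots coloured by call, rings for lower bounds where all adult pools had 0 counts, a bar at each group's median and a dashed line at the median of all genes tested. The sulfotransferases have 1 member left of 0 (*Chst10*) and dolichol-linked assembly has 1 member right of it (*Alg10*). *Pigr*, which is no glycosylation enzyme, is left out.

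Scaling sets the side of the weaker adult differences. With total counts alone the median difference over the 16643 genes moved (log2) from 0.14 to 0.95, and the share of all calls that lay at E15 from 54.2% to 81.0%. Among the members that share moved from 54.5% to 71.4%, with 60 called at E15 against 24 in the adult. The direction reversed in 11 members, all of them under 1.7-fold higher in the adult with TMM scaling: *B4galt1*, *B4galt5*, *B3gnt1*, *B3gnt2*, *Galnt11*, *Mgat4a*, *Mgat5*, *Alg3*, *Pigc*, *Pigq* and *Pigt*. A further 11 members lost their call: *St3gal5*, *B3galnt2*, *Man2a1*, *Alg2*, *Alg11*, *Alg13*, *Pigg*, *Pigw*, *Pigx*, *Pomgnt1* and *Chst10*. Members described below as higher in the adult by over 2-fold kept their direction.

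**Figure D2:**
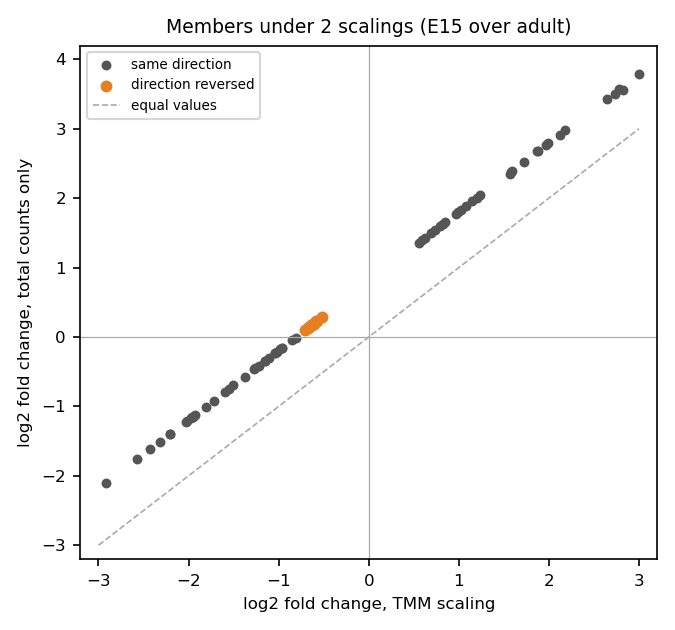
Log2 fold change of E15 over adult for each member with TMM scaling (horizontal axis, shown from -3 to 3) and with scaling by total counts alone (vertical axis). All points lie above the dashed line of equal values by about the same distance, and the 11 orange points are members that changed direction.

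Promoter sequence is shown for 4 members that mark both ends of the set. *St8sia2* and *B3gnt5* had at least 100 normalized counts on average at E15 and none in any adult pool, *Man1a1* had the largest fold in the adult among members of that level, and *St6gal1* was the sialyltransferase with most counts in the adult. Each sequence is the 250 bases before the RefSeq gene start on GRCr8, 5′ to 3′ on the strand of the gene. Capitals mark matches on either strand to the GC box (letters GGGCGG), to the TATA box (letters TATAAA), to the CCAAT box, to an E-box with the letters CAGGTG or to a further E-box with the letters CACGTG. *St8sia2* lies at chr1:137247754-137248003, minus strand, *B3gnt5* at chr11:94657585-94657834, minus strand, *Man1a1* at chr20:33927502-33927751, minus strand, and *St6gal1* at chr11:91040405-91040654, minus strand.
St8sia2: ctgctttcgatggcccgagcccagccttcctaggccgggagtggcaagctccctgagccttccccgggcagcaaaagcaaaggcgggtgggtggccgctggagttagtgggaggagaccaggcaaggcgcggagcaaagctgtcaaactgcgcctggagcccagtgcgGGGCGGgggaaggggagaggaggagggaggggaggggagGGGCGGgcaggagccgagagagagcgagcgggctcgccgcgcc
B3gnt5: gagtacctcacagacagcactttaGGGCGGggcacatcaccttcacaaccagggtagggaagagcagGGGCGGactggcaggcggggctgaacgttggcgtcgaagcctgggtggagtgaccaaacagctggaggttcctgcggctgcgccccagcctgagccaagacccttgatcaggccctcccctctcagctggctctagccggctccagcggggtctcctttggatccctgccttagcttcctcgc
Man1a1: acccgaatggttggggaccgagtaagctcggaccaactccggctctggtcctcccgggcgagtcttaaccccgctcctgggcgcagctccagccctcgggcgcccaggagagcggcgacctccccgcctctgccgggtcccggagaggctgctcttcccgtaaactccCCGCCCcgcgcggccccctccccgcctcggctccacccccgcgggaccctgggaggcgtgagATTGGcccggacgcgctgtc
St6gal1: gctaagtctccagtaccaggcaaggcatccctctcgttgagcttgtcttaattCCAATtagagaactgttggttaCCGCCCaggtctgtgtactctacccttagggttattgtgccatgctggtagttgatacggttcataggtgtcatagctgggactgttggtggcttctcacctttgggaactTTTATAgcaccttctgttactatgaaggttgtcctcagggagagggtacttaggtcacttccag

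The printed windows differ in base composition. Over the 250 bases before the start, the *Man1a1* window was 73.6% G and C with a CpG observed-to-expected ratio of 0.847. The values were 70.4% and 0.632 for *St8sia2*, 64.0% and 0.43 for *B3gnt5*, and 48.0% and 0.209 for *St6gal1*. The same 250 bases were used for every promoter below. Of the 4, the window of *St6gal1* alone held the TATA box letters. A RefSeq promoter was matched to 86 of the 107 members, *Galntl1* by its newer symbol *Galnt16*. The ratio was above 0.6 in 44.2% of 19005 protein-coding promoters, in 20 of the 42 matched members called at E15 (47.6%) and in 29 of the 39 called in the adult (74.4%). Its median was 0.523 over all promoters, 0.554 over the members called at E15 and 0.815 over those called in the adult. The GC box letters were found in 40.3% of all promoters, 59.5% of those of members called at E15 and 56.4% of those called in the adult. Those of the TATA box were found in 12.3%, 4.76% and 2.56%, of the CCAAT box in 35.5%, 28.6% and 43.6%, of the first E-box in 15.7%, 19.0% and 25.6%, and of the second in 6.38%, 11.9% and 2.56%. These shares describe the windows and were not tested, and the starts used by the plexus were not measured.

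Sialyltransferases add sialic acid to the ends of glycans. Of the 12 members, 7 were called at E15 and 5 in the adult, and enzymes of each linkage were found on both sides. *St8sia2*, a polysialyltransferase whose best known substrate is the neural cell adhesion molecule NCAM, had 205, 187 and 249 normalized counts in the E15 pools and 0 counts in all adult pools. It was therefore at least 157-fold higher at E15, against a floor of 3 counts over the adult pools. The bound was 102 to 107 with any one adult pool left out. There the floor stayed at 3 counts over fewer pools, which by itself lowers the bound. *St8sia4*, the other polysialyltransferase, had 122, 121 and 95.7 normalized counts at E15 against 1.42, 1.3 and 15.1 in the adult. The ages did not overlap, and the difference was 18.7-fold. Without adult replicate 3, which held 11 of the 13 adult counts, it was a ratio of 83.2 (exact 95% counting interval of 22.9 to 690). A second identifier described as *St8sia4* had 124, 195 and 144 counts at E15 against 3, 9 and 1 in the adult, with replicate 2 the highest adult pool, and a difference of 20.3-fold. *St8sia1*, which makes the disialylated ganglioside GD3, had 372, 326 and 320 normalized counts at E15 against 17.0, 14.3 and 19.2 in the adult (20.0-fold). *St8sia6* had 2, 4 and 7 counts at E15 against none in the adult, which allows only a bound of 2.52-fold (1.64 to 1.71 with any one adult pool left out). It was not called, or not tested, in 5 of the 6 fits that left out a pool, all but that without E15 replicate 1.

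The remaining alpha-2,8-sialyltransferase named here was higher in the adult, on few counts. *St8sia5*, a ganglioside sialyltransferase, had 0, 5 and 3 counts at E15 against 27, 29 and 18 in the adult (15.2-fold, and 25.4-fold without E15 replicate 2). *St6galnac3*, which adds sialic acid to GalNAc in short O-glycans and gangliosides, had 1242, 993 and 946 normalized counts at E15 against 86.4, 58.4 and 70.0 in the adult, 14.8-fold higher at E15. Its second identifier had 207, 267 and 231 counts at E15 against 8, 14 and 2 in the adult (16.9-fold).

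*St6gal1*, which caps N-glycans with alpha-2,6-linked sialic acid, had 2284, 2592 and 2263 normalized counts at E15 against 10451, 10370 and 12200 in the adult, 4.62-fold higher. *St3gal6*, which caps lactosamine in alpha-2,3 linkage, had 737, 380 and 438 at E15 against 5430, 5759 and 6294 in the adult (11.2-fold). E15 replicate 1 was the highest E15 pool and still far below each adult pool. *St3gal5*, the GM3 synthase at the entry to the gangliosides, was 1.98-fold and *St6galnac2* 2.94-fold higher in the adult, whereas *St3gal2* (1.72-fold) and *St3gal4* (1.76-fold) were higher at E15. For *St3gal4*, adult replicate 1 with 289 normalized counts stood above the other adult pools with 174 and 180, and below the E15 range of 367 to 383.

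**Figure D3:**
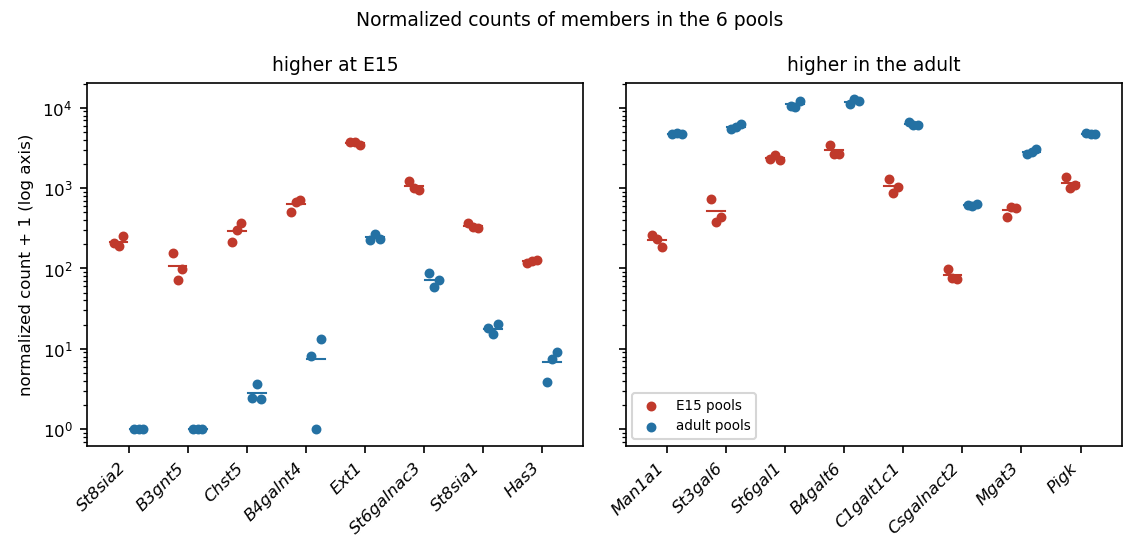
Normalized counts plus 1 (log axis) of 16 members in the 3 E15 pools (red) and the 3 adult pools (blue), with a line at each mean, for 8 members higher at E15 (left) and 8 higher in the adult (right). The pools of the ages do not overlap in any of the 16, and *St8sia2* and *B3gnt5* have 0 counts in every adult pool.

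Glycosaminoglycan chains are polymerized by paired enzymes, and paralogues of one step lay on opposite sides. *Ext1*, a subunit of the heparan sulfate polymerase, had 3764, 3703 and 3476 normalized counts at E15 against 227, 270 and 232 in the adult. All pools of each age lay close together, and the difference was 15.0-fold (log2 3.91 ± 0.12 SE). *Extl2* and *Extl1*, exostosin-like relatives, were 3.90-fold and 4.60-fold higher in the adult. In chondroitin synthesis, *Csgalnact1*, which starts the chain, had 291, 234 and 174 normalized counts at E15 against 31.1, 45.4 and 24.7 in the adult (6.85-fold higher at E15). Its paralogue *Csgalnact2* had 97.4, 75.5 and 72.9 at E15 against 616, 597 and 637 in the adult, 7.52-fold the other way. For each gene the ranges of the ages were separate. The chondroitin synthase *Chsy1* was only 1.54-fold higher at E15, and *Chsy3*, with 37, 72 and 56 counts at E15, had 0, 3 and 0 in the adult, a ratio of 31.9 with an exact 95% counting interval of 10.7 to 156. All adult counts of *Chsy3* came from replicate 2, and without that pool only a lower bound of 20.8-fold remained.

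The hyaluronan synthases named here were both E15 genes by count. *Has2* had 84, 64 and 53 counts at E15 against none in the adult, at least 38.9-fold higher (25.3 to 26.4 with any one adult pool left out), and *Has3* had 141, 158 and 162 counts at E15 against 2, 5 and 6 in the adult (20.2-fold). *B3galt6*, which adds galactose to the linker that joins glycosaminoglycans to protein, was called at E15 (1.95-fold) although its ages overlapped, since E15 replicate 1 with 81.9 normalized counts fell between the adult pools of 103, 71.4 and 48.1. The call was lost in 4 of the 6 fits that left out a pool (E15 replicates 2 and 3, adult replicates 2 and 3) and with a replicate block.

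Sulfotransferases place sulfate on these chains and on the ends of other glycans. Of 18 members, 14 were called at E15, 1 in the adult and 1 (*Hs3st2*, counted 1, 1 and 13 times at E15 and never in the adult) was not called, while *Hs3st3b1* and *Chst13*, with 10 or fewer counts in all, were not tested. The median log2 fold change was 3.57 over those tested and 2.23 over all 18 with members of 0 adult counts at their lower bounds. *Chst5*, which sulfates GlcNAc, had 214, 303 and 363 normalized counts at E15 against 1, 2 and 1 raw counts in the adult pools, 151-fold higher at E15. Its relatives that sulfate the same position, *Chst2* (201, 393 and 373 at E15; 14.2, 16.9 and 13.7 in the adult) and *Chst7* (78.6, 139 and 132; 2.83, 5.19 and 0), were 21.4-fold and 41.0-fold higher. For *Chst7* the ratio without adult replicate 2 was 83.9 (exact 95% counting interval of 23.1 to 695). In all 3 genes E15 replicate 1 was the lowest E15 pool.

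Sulfotransferases of chondroitin and keratan chains were higher at E15 as well. *Chst3*, a chondroitin 6-O-sulfotransferase, had 54, 117 and 78 counts at E15 against 2, 0 and 1 in the adult, a ratio of 48.2 with an exact 95% counting interval of 16.3 to 235. The ratio was 98.3 (17.5 to 3898) without adult replicate 1 and 31.4 (10.6 to 153) without adult replicate 2. *Chst1*, which sulfates galactose in keratan sulfate, had 308, 377 and 344 normalized counts at E15 against 36.8, 66.2 and 13.7 in the adult (8.74-fold, and 13.2-fold without adult replicate 2). *Chst11* and *Chst12*, chondroitin 4-O-sulfotransferases, were 1.66-fold and 2.36-fold higher, and *Chst15*, which adds a further sulfate to the same chain, 4.54-fold (7.16-fold without adult replicate 2). *Chst8*, which sulfates GalNAc on N-glycans of pituitary hormones, had 104, 167 and 134 normalized counts at E15 against 0, 11.7 and 2.75 in the adult, 26.6-fold, with a ratio of 97.3 (exact 95% counting interval of 26.8 to 806) without adult replicate 2.

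Heparan sulfate sulfotransferases ranged from 1.47-fold higher at E15 to counted at E15 alone. *Hs6st2*, a 6-O-sulfotransferase, had 242, 203 and 191 normalized counts at E15 against 15.6, 19.5 and 4.12 in the adult (16.0-fold), whereas *Hs2st1*, the only 2-O-sulfotransferase, had 2952, 2455 and 2310 at E15 against 1644, 1840 and 1770 in the adult (1.47-fold). The 3-O-sulfotransferases *Hs3st5* and *Hs3st6* were 6.64-fold and 4.37-fold higher at E15 on 48 and 92 counts over the E15 pools, and *Hs3st5* without adult replicate 2 had a ratio of 18.1 (exact 95% counting interval of 3.10 to 731). *Ndst3*, an N-deacetylase and N-sulfotransferase, with 2, 7 and 16 counts at E15 against none in the adult, has a lower bound of 4.84-fold (3.15 to 3.29 with any one adult pool left out). *Chst10*, which makes the HNK-1 epitope, was the one sulfotransferase higher in the adult, with 147, 136 and 136 normalized counts at E15 against 273, 310 and 232 in the adult (1.95-fold, log2 -0.96 ± 0.18 SE). With total counts alone no sulfotransferase was called in the adult.

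Galactose and hexosamine transferases extend the chains that sialic acid, fucose and sulfate later cap. Here the paralogues of the beta-1,4-galactosyltransferases divided between the ages. *B4galt6*, a lactosylceramide synthase, had 3476, 2676 and 2678 normalized counts at E15 against 11033, 12681 and 12030 in the adult, 4.05-fold higher. *B4galt2* had 521, 593 and 652 at E15 against 156, 162 and 163 in the adult, 3.66-fold higher at E15, and *B4galt3* was 1.51-fold higher at E15. *B4galt1* and *B4galt5*, which galactosylate glycoproteins and glycolipids, were 1.52-fold and 1.43-fold higher in the adult with TMM scaling and reversed with total counts alone. The lactosaminide and O-mannose enzymes *B3gnt2*, *B3gnt1* and *B3galnt2* were 1.56-fold, 1.56-fold and 2.03-fold higher in the adult, of which the first and second reversed and *B3galnt2* lost its call with total counts alone.

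The largest differences in this group were those of genes with almost no adult counts. *B4galnt4*, which builds the GalNAc-GlcNAc unit, had 616, 879 and 897 counts at E15 against 5, 0 and 9 in the adult, 96.8-fold higher, with 62.1-fold and 175-fold when adult replicate 2 or 3 was left out. *B3galt1*, which starts type 1 chains, had 323, 298 and 298 counts at E15 against 2, 5 and 0 in the adult (73.7-fold, and a ratio of 174 without adult replicate 2, exact 95% counting interval of 47.9 to 1436). *B3gnt5*, which starts the lacto-series glycolipids, had 188, 92 and 126 counts at E15 against none in the adult, at least 78.6-fold higher (51.1 to 53.4 with any one adult pool left out). *B3gnt9* (25.1-fold, and without adult replicate 3 a ratio of 69.6, exact 95% counting interval of 19.1 to 577) and *B3gnt8* (7.97-fold, 12.3-fold without adult replicate 3) showed the same order of ages on 358 and 267 E15 counts. *B3galtl*, which adds glucose to O-fucose on thrombospondin repeats, was 2.30-fold, *B4galnt3* 2.98-fold and *B3galt4*, the ganglioside GM1 synthase, 1.99-fold higher at E15.

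The 2 members of this group that were not called had pools that overlapped. *B3galt2* had 188, 53.1 and 104 normalized counts at E15 against 75.0, 98.7 and 39.8 in the adult. *B4galnt1*, the GM2 and GD2 synthase, had 21, 14 and 31 counts at E15 against 0, 12 and 1 in the adult, so that nearly all adult counts came from replicate 2, and the fitted difference was 2.97-fold. Without that pool 1 adult count was left, with a ratio of 24.9 and an exact 95% counting interval of 4.32 to 1000.

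Mucin-type O-glycans are started by the polypeptide GalNAc-transferases and extended by the core enzymes. The starters were higher at E15 in most cases and the core 1 pair in the adult. *Galntl1*, a GalNAc-transferase, had 1045, 1051 and 1170 normalized counts at E15 against 4.25, 105 and 28.8 in the adult. The adult pools spread over a far wider range than the E15 pools, and the 23.1-fold difference was 63.2-fold without adult replicate 2. *Galnt3* had 275, 186 and 194 at E15 against 5.66, 10.4 and 15.1 in the adult (20.7-fold), and *Galnt13*, described in neural tissue, 67.9, 74.7 and 85.5 at E15 against 0, 10.4 and 0 in the adult, where replicate 2 again held all of the counts. The fitted difference of *Galnt13* was 20.5-fold and 13.7-fold without adult replicate 3, and without adult replicate 2 only a lower bound of 36.4-fold remained. *Galnt10* (3.91-fold), *Galntl4* (3.98-fold), *Galnt12* (3.30-fold) and *Galnt5* (3.69-fold, and without adult replicate 3 a ratio of 10.9, exact 95% counting interval of 3.60 to 53.9) followed in the same direction.

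*Galnt7* and *Galnt11* were higher in the adult by 2.39-fold and 1.59-fold. *C1galt1*, which makes core 1, had 236, 170 and 177 normalized counts at E15 against 673, 786 and 799 in the adult (3.87-fold). Its chaperone *C1galt1c1* (Cosmc), needed to fold it, had 1311, 868 and 1021 at E15 against 6710, 6186 and 6082 in the adult (5.93-fold). Enzyme and chaperone were thus higher at the same age, with separate ranges. The branching enzymes differed in side, *Gcnt1* (core 2) being 3.01-fold higher at E15 and *Gcnt2* (I antigen) 3.82-fold higher in the adult.

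Fucosyltransferases add fucose to chain ends. *Fut4*, which makes the Lewis x structure, had 67.9, 153 and 120 normalized counts at E15 against 9.91, 13.0 and 9.61 in the adult (10.4-fold). *Fut9*, which makes the same structure in the developing nervous system, had 117, 47 and 59 counts at E15 against 0, 10 and 0 in the adult. The fitted difference of 12.9-fold rested on adult replicate 2, and without it a lower bound of 28.1-fold was left. *Fut1*, with 9, 7 and 4 counts at E15 against none in the adult, has a bound of 3.87-fold (2.52 to 2.63 with any one adult pool left out), and *Fut7*, with 16, 9 and 2 counts at E15 against 0, 0 and 2 in the adult, was not called (ratio of 7.84, exact 95% counting interval of 1.97 to 68.0).

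Few adult counts were found for many members higher at E15. Of 26 with an adult mean under 30 normalized counts but not 0, 14 were highest in adult replicate 2, 9 in replicate 3 and 3 in replicate 1, with summed normalized counts of 158.6, 231.1 and 190.9 in replicates 1 to 3. The developing-neuron markers were also highest in adult replicate 2 (731 against 145.8 and 189.5), and the oligodendrocyte markers in adult replicate 1 (5935 against 2019 and 800.7). The part of either in these adult counts was not tested.

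N-glycan processing held the member with the largest fold toward the adult. *Man1a1*, a Golgi mannosidase that trims the high-mannose chain before branching, had 261, 231 and 185 normalized counts at E15 against 4740, 4838 and 4677 in the adult, 21.0-fold higher (log2 -4.40 ± 0.15 SE). *Man2a1*, the mannosidase that acts after the first branch, was 1.75-fold higher. *Mgat3*, which adds the bisecting GlcNAc, had 435, 584 and 572 at E15 against 2673, 2810 and 3061 in the adult (5.36-fold), and *Mgat2*, which starts the second branch, was 2.33-fold higher. *Mgat4a* and *Mgat5*, which start the further branches, differed by 1.64-fold and 1.60-fold toward the adult and reversed with total counts alone. Relatives of these 2 were E15 genes, *Mgat5b*, which branches O-mannose glycans in brain, with 145, 136 and 185 normalized counts at E15 against 2.83, 11.7 and 0 in the adult (30.6-fold, 20.3-fold without adult replicate 3, and without adult replicate 2 a ratio of 111 with an exact 95% counting interval of 30.7 to 923), and *Mgat4c* with 6.27-fold.

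The enzymes that build the lipid-linked precursor of N-glycans moved by smaller factors. *Alg6* and *Alg5*, which add the first glucose and make its lipid donor, were 3.02-fold and 2.83-fold higher in the adult. *Dpm1*, the catalytic subunit of dolichol-phosphate mannose synthase, had 790, 561 and 565 normalized counts at E15 against 1665, 1680 and 1633 in the adult (2.60-fold). *Alg13* and *Alg14*, the subunits of one GlcNAc-transferase, were 2.23-fold and 2.41-fold higher, and the mannosyltransferases *Alg11* and *Alg2* 2.15-fold and 1.95-fold. *Alg10*, which adds the last glucose, was the exception, with 3057, 2014 and 2032 normalized counts at E15 against 1052, 1137 and 1297 in the adult (2.04-fold higher at E15). All 9 members of this group had at least 100 normalized counts on average at one age or more.

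GPI anchors attach proteins to the outer membrane. *Pigk* and *Pigs*, subunits of the transamidase that joins protein to anchor, had 1370, 1013 and 1104 and 972, 1361 and 1259 normalized counts at E15, and 4848, 4673 and 4674 and 4726, 4802 and 4584 in the adult, 4.07-fold and 3.93-fold higher. *Pigt*, a further subunit, was only 1.53-fold higher and reversed with total counts alone. The first step, transfer of GlcNAc to phosphatidylinositol, is carried out by one complex whose subunits did not share a direction. *Pigh* (3.30-fold), *Pigq* (1.58-fold) and *Pigc* (1.49-fold) were higher in the adult, and the catalytic subunit *Piga*, with 306, 210 and 199 normalized counts at E15 against 133, 93.5 and 96.1 in the adult, was 2.22-fold higher at E15. *Pigq* and *Pigc* reversed with total counts alone. The identifier with the symbol *Pigy* (3.50-fold higher in the adult) is described in the authors' table as the mitochondrial protein preY, so that its counts are not shown to be those of the subunit, and without it 9 members of this group were called in the adult and 2 at E15. *Pign*, which adds ethanolamine phosphate, was 1.80-fold higher at E15, and *Pigw*, *Pigg* and *Pigx*, which act on the inositol, the side groups and the first mannose, were 2.23-fold, 2.06-fold and 1.80-fold higher in the adult. *Pigr*, the polymeric immunoglobulin receptor, met the pattern by its letters and is no glycosylation enzyme, with 17, 5 and 8 counts at E15 against 25, 18 and 45 in the adult.

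Of the O-mannosylation enzymes, which glycosylate dystroglycan, *Pomt1* had 778, 982 and 998 normalized counts at E15 against 445, 465 and 400 in the adult (2.11-fold higher at E15). *Pomgnt1*, which acts after it, had 1109, 1359 and 1397 at E15 against 2472, 2728 and 2737 in the adult (2.05-fold higher in the adult), a difference that was not called with total counts alone.

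Pools of one age differed most at E15, as the plot of E15 pools shows. Of 81 members with a mean of at least 100 normalized counts at E15, replicate 1 was over 1.5-fold below the mean of the other pools in 8 and over 1.5-fold above it in 7 (18.5% of members, against 19.9% of all genes of that level). Replicates 2 and 3 differed from each other by over 1.5-fold in 1 of the 81, *B3galt2*. The members low in replicate 1 included *B3galt6* (0.464 of the mean of the others), *Fut4* (0.497), *Chst12* (0.504) and *Chst2* (0.526), and those high in it included *B3galt2* (2.39), *Alg13* (1.92), *B3gnt5* (1.81) and *St3gal6* (1.80). Developing-neuron markers were highest in that pool (5461 against 1742 and 3982). Of the 55 members called at E15, 23 were highest in replicate 1, 16 in replicate 2 and 16 in replicate 3. The lowest E15 pool was replicate 1 in 26 of them, replicate 2 in 11 and replicate 3 in 18. The part of neuronal cells in these values was not tested. Leaving out one pool in turn removed the call of 10 members in at least 1 fit. These were *B3galt6*, *Galnt5* (in 5 of 6 fits, all but that without adult replicate 3), *St8sia6*, *Ndst3* (without E15 replicate 3 or any adult pool), *Chst11* (E15 replicate 2, adult replicates 1 and 3), *Hs3st6* (E15 replicate 2, adult replicate 1), *Mgat5* (E15 replicate 3, adult replicate 3), *Alg3* (adult replicate 1), *B3galt4* and *B4galnt3* (E15 replicate 3 each). Without E15 replicate 1, 55 members were called at E15 against 46 in the adult.

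**Figure D4:**
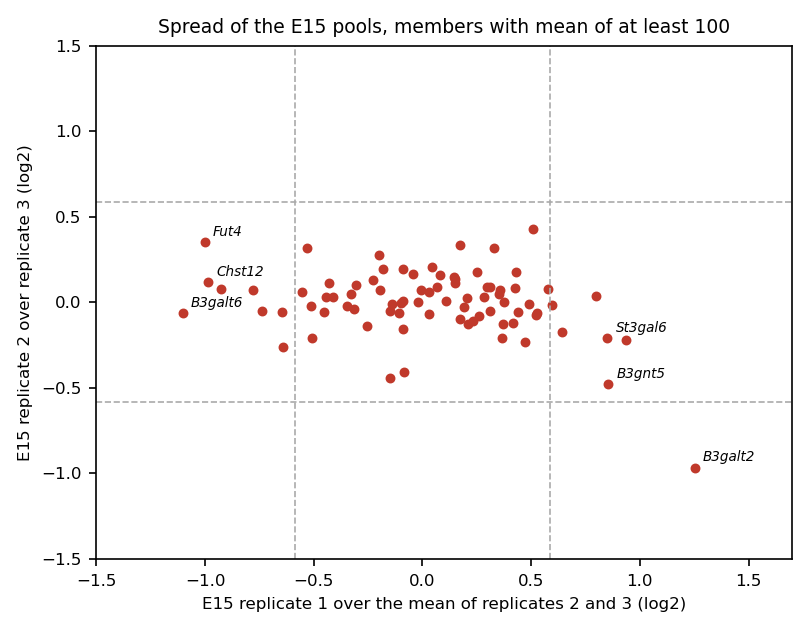
For 81 members with a mean of at least 100 normalized counts at E15, the log2 ratio of E15 replicate 1 to the mean of replicates 2 and 3 (horizontal axis) and of replicate 2 to replicate 3 (vertical axis), with dashed lines at 1.5-fold. Replicate 1 passes those lines in 15 members and replicates 2 and 3 differ by as much in 1, *B3galt2*.

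Glycosylation also depends on genes outside the name pattern. Of 102 such genes listed, 50 had a name in the authors' table and so were selected on the same contrast, with 20 called at E15, 28 in the adult and 2 (*Uxs1* and *B3gat1*) not called, and a median log2 fold change of -0.69. Over all genes tested, 64.0% were called and 54.2% of the calls lay at E15. With total counts alone, the number called in the adult was 12, and 81.0% of the calls over all genes lay at E15. Since these genes were selected on the contrast, nothing is read from these counts or from those of the lists below. All 5 genes of the oligosaccharyltransferase and glucosidase list were higher in the adult with TMM scaling, led by *Tusc3* (2.69-fold) and *Rpn2* (2.15-fold), and *Ganab* (1.55-fold) reversed with total counts alone. Of 15 supply enzymes, 10 were higher in the adult, with *Ugp2*, which makes UDP-glucose, at 4.11-fold, and 4 at E15, with *Gfpt2*, of the hexosamine pathway, at 23.9-fold. With total counts alone, 6 of the supply enzymes (*Galk2*, *Gne*, *Nanp*, *Pmm2*, *Uap1* and *Uxs1*) reversed, and 5 were called in the adult.

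The *Slc35* family includes transporters of the donors that these enzymes use. Of its 7 genes named here, 5 were higher in the adult with TMM scaling, of which *Slc35b1* reversed with total counts alone. *Slc35a1*, the CMP-sialic acid transporter, had 987, 795 and 805 normalized counts at E15 against 3938, 3680 and 3942 in the adult (4.47-fold). *Slc35d1*, which carries UDP-glucuronic acid and UDP-GalNAc for chondroitin, was 5.17-fold higher in the adult. Of 9 further transferases and modifiers, 3 were higher at E15 against 5 in the adult, among them *Mfng*, a modifier of O-fucose on Notch (26.2-fold at E15), and *Dse*, an epimerase of dermatan sulfate (3.42-fold in the adult). *B3gat3* (1.74-fold) and *Dsel* (1.72-fold), higher in the adult with TMM scaling, reversed with total counts alone.

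The proteins that carry these glycans were mostly higher at E15, 11 of 14, with 3 in the adult, of which *Sdc2* (1.61-fold) reversed with total counts alone. *Vcan*, the chondroitin sulfate proteoglycan versican, had 3757, 3366 and 3244 normalized counts at E15 against 25.5, 15.6 and 35.7 in the adult (135-fold), and *Gpc3*, a GPI-anchored heparan sulfate proteoglycan, was 32.6-fold higher. *Ncam1*, the carrier of polysialic acid, had 1067, 1045 and 1099 at E15 against 80.7, 257 and 104 in the adult (7.22-fold), with adult replicate 2 again the highest adult pool. *Sdc4*, a syndecan, had 1060, 916 and 846 at E15 against 12035, 12955 and 12611 in the adult, 13.3-fold higher, and the small proteoglycan *Dcn* was 6.52-fold higher in the adult.

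**Figure D5:**
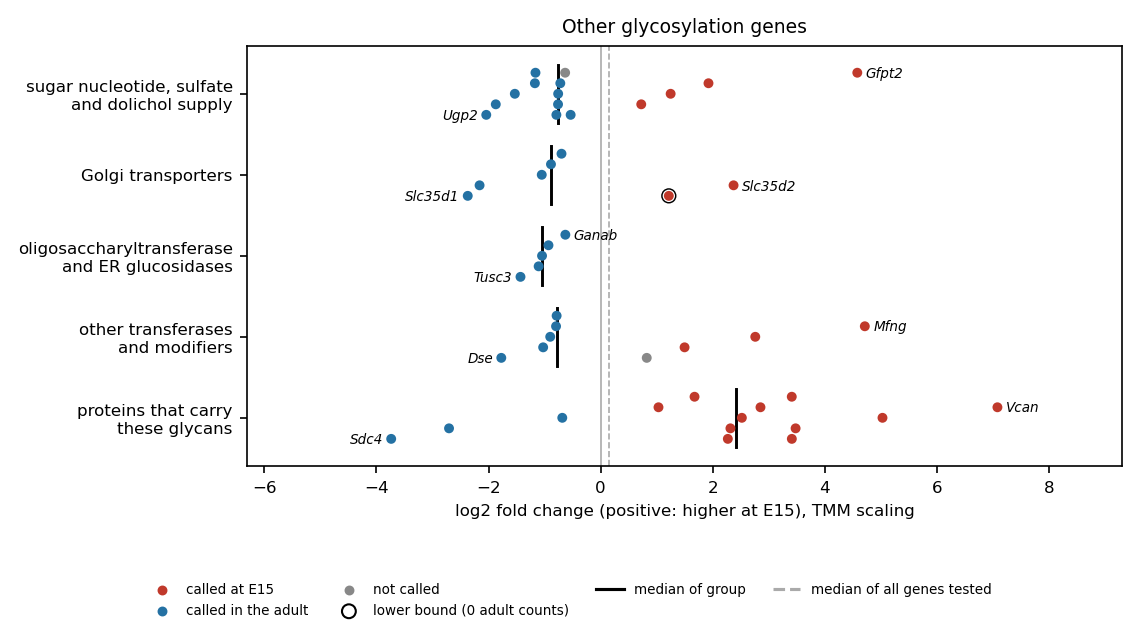
Fold change between E15 and adult (log2, positive when higher at E15) of the 50 other glycosylation genes named in the authors' table, in 5 lists (rows), coloured by call, with a bar at each list's median and a dashed line at the median of all genes tested. All 5 genes of the oligosaccharyltransferase and glucosidase list lie left of 0, and 11 of 14 carrier proteins lie right of it.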

How the data were processed

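Lateral ventricular choroid plexuses were pooled from 10 rats per library, and libraries were made from their RNA with an mRNA-Seq kit and sequenced on an Illumina instrument. Per the study's methods and the processing notes, the authors aligned reads with Bowtie 0.12.7 to Ensembl release 61 and counted them per gene with HTSeq 0.4.7p4. The deposited count table holds raw counts per gene identifier for the 6 libraries. The deposited table of named genes holds the authors' own edgeR 2.4.0 comparison of the ages (log2 fold change and abundance, p-value and adjusted p-value), from which only the identifiers, names and descriptions were used here. Groups and replicate numbers came from the sample titles.

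Counts were fitted with the quasi-likelihood test of edgeR 4.0.16 (R 4.3.3), with TMM factors, genes of more than 10 counts over the 6 libraries (16643) and Benjamini-Hochberg adjustment over all of them. The fit was first tested on simulated data. There both ages shared one expression profile apart from a set of changed genes, so the scaling between the ages was not tested by it. Alternatives were other scalings, other filters, DESeq2 1.42.0, limma 3.58.1, the exact test with a common dispersion, a replicate block and each pool left out. Where all adult pools had 0 counts, the fold given is a lower bound, taken as if these pools had held 3 counts together. The 3 counts were kept when an adult pool was left out, which by itself lowers the bound. With 1 to 3 counts the fold is a ratio with an exact 95% interval, and bound and interval cover counting error only. With 3 pools per age, exact permutation gives no p below 0.10, and it was not used. Named members were those with most counts or the largest differences in each type of enzyme, those with no adult count, and paralogues of one step; the others were added after their values were seen. The members and lists were chosen with earlier results of these data known. Per the study's methods, reads without a unique position were dropped and counting used the default union option, so close paralogues may have lost counts. Whether counting used strand is not given in the sources used here, so counts of overlapping and antisense genes may be affected.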

Additional observations from a re-analysis of the deposited data

How the results depend on the processing

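The fit with TMM scaling called 101 members (55 and 46 by age). Of the alternatives, scaling by total counts alone changed most: 24 members were called in the adult, 12 of the other glycosylation genes were called in the adult, and over all genes 9799 were called at E15 and 2292 in the adult, against 5773 and 4879. The members whose direction reversed then had log2 fold changes of 0.0949 (*Mgat4a*), 0.13 (*Mgat5*), 0.13 (*Galnt11*), 0.15 (*Pigq*), 0.16 (*B3gnt2*), 0.17 (*B3gnt1*), 0.19 (*Pigt*), 0.20 (*B4galt1*), 0.23 (*Pigc*), 0.24 (*Alg3*) and 0.29 (*B4galt5*), and a further 11 members, named above, lost their call. Total counts alone leave out the TMM factors. The cause of the gap between the scalings, and which scaling is nearer to the tissue, was not tested. Under each of the remaining scalings, filters and tools, 51 to 59 members were called at E15 and 44 to 46 in the adult, and none reversed. Leaving out each pool in turn gave 50 to 55 at E15 and 45 to 46 in the adult.

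Samples of the same replicate number did not deviate together (correlations of -0.0125, -0.0117 and -0.0475), so no pairing by number was seen. Whether same-numbered pools shared a step of preparation was not tested. With a replicate block, 51 members were called at E15 and 46 in the adult, and 5320 and 4608 over all genes; *B3galt6*, *Galnt5*, *St8sia6* and *Fut1* lost their call. Enzyme genes of the same name pattern outside the authors' table, a comparison planned as an alternative, were not run because no table used here pairs their identifiers with names. Depth limits the members with few counts, for which a count of 0 allows only the lower bounds given above.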

Other observations

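Some identifiers in the authors' table carry a clone name in place of a symbol while their description names an enzyme of the same families. They were found by reading the descriptions, after the members were known. *Pigp*, a further subunit of the complex that starts GPI anchors, had 618, 472 and 500 normalized counts at E15 against 2292, 1687 and 2224 in the adult (3.90-fold higher in the adult), the direction of *Pigh* and not of *Piga*. *Alg1*, which adds the first mannose to the dolichol-linked chain, was 1.55-fold higher in the adult, and E15 replicate 1 was its lowest E15 pool with 110 normalized counts against 203 and 177. *Galnt6* had 14, 18 and 21 counts at E15 against 4, 2 and 0 in the adult (4.92-fold), and *Hs3st4*, a heparan sulfate 3-O-sulfotransferase, 8, 14 and 17 at E15 against none in the adult, a lower bound of 7.55-fold. *Fut10*, with 8, 8 and 10 counts at E15 against 3, 0 and 0 in the adult, was not called. The second identifier described as *Mgat4a* was 2.53-fold higher in the adult, against 1.64-fold for the identifier that carries the symbol. These genes were chosen by the same contrast, and the values are descriptions.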
